A study of Arabidopsis thaliana with 24 samples.

Results

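Of 31189 transposable elements (TEs) counted in Arabidopsis leaf RNA, 192 reached 10 counts in some library and were silent in at least 1 group of plants. They are called switched TEs below, although only 59 of them reached 10 counts in both libraries of any group. A TE was included when at least 1 of the 12 RNA libraries held 10 or more counts, when both libraries of at least 1 group held 0 or 1 count, and when a library outside DH6 held at least 1 count. No count in any library was found for 22911 TEs, and 1639 reached 10 counts somewhere. Of these, 197 had a silent group, and 5 of them were left out because only DH6 held counts. The same counts chose the 192 TEs, so their levels and calls below are a description and carry no test of their own.

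TEs are stretches of DNA that can move or copy themselves within a genome, and most plant copies are kept without transcripts. In Arabidopsis they are silenced by DNA methylation at CG, CHG and CHH sites and by methylation of histone H3 at lysine 9. MET1 copies CG methylation after replication, CMT3 and CMT2 maintain non-CG methylation together with histone methylation, DRM2 is guided by small RNAs, and the remodeler DDM1 gives the methyltransferases access to packed chromatin. Single TE copies can gain or lose silencing without any change of DNA sequence, and such states can be inherited.

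RNA was sequenced from leaves 6, 7 and 8 of 2-week-old plants grown at 22 °C with a day of 16 h and a night of 8 h, after poly(A) selection. Each group had 2 libraries (n = 2 throughout): haploid plants (1n), diploid plants (2n), and 3 lines of doubled haploids named DH6, DH9 and DH14. The last group is labelled sDH, its columns are headed sptan2n, neither term is spelled out, and it is set beside the doubled haploids here for its name. The deposited tables name 1n and 2n as Col, the usual short form of the Columbia accession, and head the 2n columns WT, while the accession of the doubled haploids is not given. The method that made the haploids, the generation of the lines and whether libraries came from separate plants are not given in the labels, and each DH number is taken as 1 line. DH6 and sDH libraries are called II and III after the column headers, and in lists of counts below their libraries stand in that order.

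Libraries held 16484799 to 22146896 gene counts, so that 1 count equalled 0.0449 to 0.0631 CPM (the usual depth-scaled unit, here with library sizes from genes). The floor of 3 counts, the upper 95% limit for a count of 0 from counting error alone, equalled 0.135 to 0.189 CPM. TE counts amounted to 9.08 and 9.19 per mille of gene counts in 1n and to 11.1 to 12.4 per mille in the other groups. The 6 leaf markers were present in all libraries (summed level 57293 to 83840 CPM). The 8 root markers summed to 1.39 to 7.00 CPM, with the root hair genes EXPA7 and EXPA18 at 0 everywhere, the 3 seed markers to at most 0.373 CPM and the 3 shoot meristem markers to at most 0.280 CPM. The 4 flower and pollen markers summed to 2.53 and 3.27 CPM in 1n and to 0.234 to 1.18 CPM elsewhere, and the part of such RNA in the 1n levels was not tested. In leaf RNA of this kind, fewer cells with an active TE and less RNA per cell cannot be told apart.

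A few libraries stood apart from the rest. DH6 II and DH6 III held 392 and 463 TEs with 2 or more counts and 0 in the other 11 libraries, against 14 to 65 in each other library. Library sDH III held 11 TEs and 13 genes with 10 or more counts that had 0 or 1 count in each of the other 11, and 1n library 2 held 1 such TE and 5 such genes, while every other library had none. One of the sDH III genes, picked after its values were seen, was AOP3, a glucosinolate enzyme gene known to be expressed in leaves of the Landsberg erecta accession and not of Columbia, with 140 counts in sDH III and 0 elsewhere. The part of these differences in the TE states was not tested; without sDH III the rule gave 190 TEs, without the DH6 group 146 and without the 1n group 147.

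Most of the 192 TEs were weakly expressed even in their highest library. The highest library held 10 or 11 counts for 60, 12 to 19 for 83, 20 to 49 for 35, 50 to 99 for 5 and 100 or more for 9 TEs, with a median of 13 and a maximum of 1331 counts. At the lower edge of the rule lay AT1TE03925 with 10 counts in 1n library 2, and AT1TE25890 and AT1TE27295 with 11 counts in sDH II and DH6 III. Just outside, 39 TEs met all else with 9 counts, among them AT1TE02275 in 1n library 2, AT1TE02540 in DH9 library 1 and AT1TE26290 in 2n library 1. The quietest group held no count at all for 109 of the 192 and a single count in its higher library for 83, and a further 91 TEs were outside with 2 counts there.

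In each group a TE was called silent (0 or 1 count in both libraries), on (10 or more in both) or between. There were 78 silent TEs in 1n and 86 in 2n, 69, 72 and 58 in DH6, DH9 and DH14, and 55 in sDH. TEs that were on numbered 15, 18, 12, 12, 13 and 9 in the same order, and only 59 of the 192 were on in any group, 44 of them in 1 group, 12 in 2 and 3 in more. A single group was silent for 88 TEs, 2 groups for 40, 3 for 19, 4 for 32 and 5 for 13. TEs silent in 1 group alone were mostly silent in 1n (24), 2n (22) or DH6 (20), with 11 in DH9, 9 in sDH and 2 in DH14. No TE was on in 1 group and silent in the other 5.

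**Figure D1:**
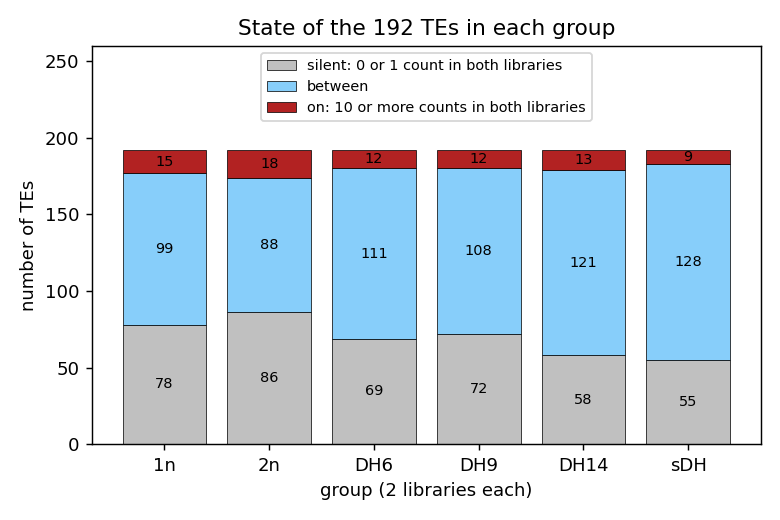
Number of the 192 TEs (y axis) that were silent, between or on in each of the 6 groups (x axis, 2 libraries each). Silent TEs ranged from 55 in sDH to 86 in 2n, and TEs on in both libraries from 9 in sDH to 18 in 2n.

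The highest library of a TE lay in sDH for 43, in 1n for 36, in DH6 for 35, in DH14 for 32, in 2n for 26 and in DH9 for 20. Summed over the 192 TEs, levels were 71.3 and 178 CPM in the 1n libraries, 70.5 and 57.0 in 2n, 76.3 and 51.8 in DH6, 43.6 and 40.3 in DH9, 42.7 and 43.2 in DH14, and 43.0 and 83.6 in sDH. DH9 and DH14 were low and even, and the other groups varied between their own libraries. Without the 3 TEs of the highest level (AT2TE25440, AT3TE43945 and AT5TE25460) the sums were 43.5 and 93.6 CPM in 1n, 61.5 in sDH III and 37.8 to 45.3 in the other 9 libraries, so that 1n library 2 and sDH III remained above the rest.

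**Figure D2:**
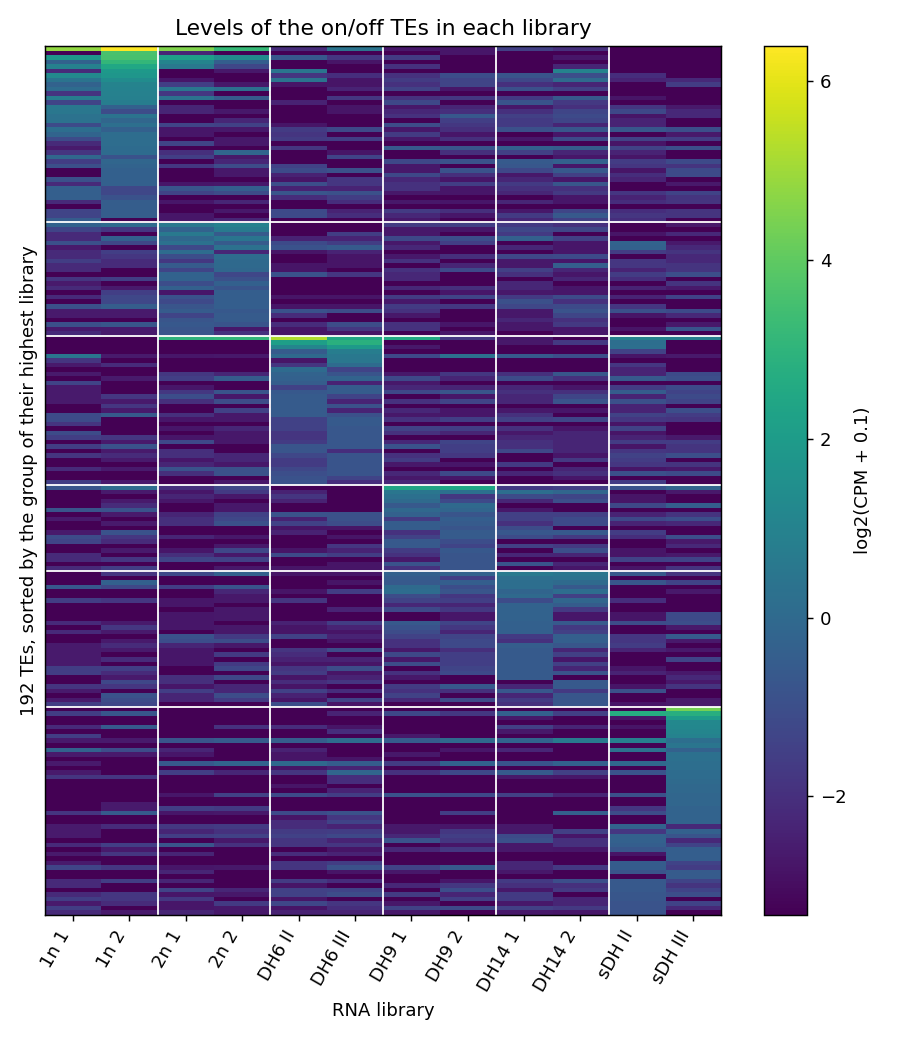
Levels as log2(CPM + 0.1) of the 192 TEs (rows, sorted by the group of their highest library) in the 12 RNA libraries (columns). The order of the rows by itself puts the highest values in blocks down the diagonal. Many TEs have counts in other groups too, and 88 of the 192 are silent in 1 group only. By counts, 43 TEs are highest in sDH, 24 of them in sDH III and 19 in sDH II.

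AT2TE25440 had the highest group mean of the set, and was on in haploid and diploid leaves and near 0 in most doubled haploids. It held 459 and 1331 counts in 1n, 471 and 168 in 2n, 3 and 26 in DH6, 1 and 1 in DH9, 5 and 3 in DH14, and none in sDH. All 4 libraries of 1n and 2n thus lay above all 8 others, with 55.9 ± 39.8 CPM (SD, n = 2) in 1n and 16.1 ± 10.1 CPM in 2n against 0.684 ± 0.776 CPM in DH6 and 0.0521 ± 0.00387 CPM in DH9. Against the floor of 3 counts over the sDH group, the pooled level of 1n was at least 711-fold and that of 2n at least 211-fold higher.

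AT1TE40170 followed the same order, with 56 and 184 counts in 1n, 90 and 46 in 2n, 12 and 4 in DH6, 4 and 0 in DH9, 0 and 1 in DH14 and none in sDH. Again no library of the doubled haploids or sDH reached the lowest of 1n and 2n (7.50 ± 5.82 and 3.45 ± 1.40 CPM). AT3TE44395 held 12 and 135 counts in 1n, 40 and 12 in 2n, 0 and 1 in DH6 and none in DH9, DH14 and sDH. It was the only TE on in 1n and silent in DH6, DH9, DH14 and sDH, at least 58.3-fold higher in 1n than over the floor in DH9, although its 1n libraries differed widely (4.63 ± 5.51 CPM).

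In all, 6 TEs were on in both 1n and 2n, and 4 of these were silent in at least 2 of DH6, DH9, DH14 and sDH. The fourth, AT2TE36460, held 12 and 15 counts in 1n, 29 and 34 in 2n, none in DH6, 4 and 5 in DH9, 4 and 3 in DH14, and 0 and 1 in sDH. Both 2n libraries were above both 1n libraries there, and all 8 others stayed at 5 counts or fewer. AT3TE44530 held 16 and 30 counts in 1n, 27 and 20 in 2n, 0 and 2 in DH6, 5 and 1 in DH9, 8 and 5 in DH14 and none in sDH. AT4TE56270 held 28 and 28, 24 and 11, 0 and 4, 3 and 4, 4 and 11, and 1 and 0 counts in the same order, so that its lowest 2n library equalled its highest DH14 library. Of the 15 switched TEs on in 1n, none was also on in DH6, DH9, DH14 or sDH. The rule left out the 1442 TEs that reached 10 counts and were silent in no group. This lack of overlap is therefore shaped by the choice of the TEs, and nothing is read from it. The opposite pattern, silent in both 1n and 2n and on in at least 2 of DH6, DH9, DH14 and sDH, was met by 0 TEs, although 37 were silent in both 1n and 2n.

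AT3TE36155 was the single TE silent in 1 group and on in the other 5. It held 1 and 1 count in 1n, 10 and 11 in 2n, 14 and 21 in DH6, 11 and 18 in DH9, 15 and 29 in DH14, and 37 and 18 in sDH. Every library outside 1n was above both 1n libraries (0.0619 ± 0.00182 CPM in 1n, 0.541 ± 0.0678 CPM in 2n and 1.39 ± 0.476 CPM in sDH). AT1TE03900 was close to this, with 1 and 0 counts in 1n, 11 and 14 in 2n, 20 and 13 in DH6, 4 and 15 in DH9, 9 and 14 in DH14, and 19 and 18 in sDH. Of the TEs silent in 1n, 22 had their highest library in a group where they were on.

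AT3TE43945 had the widest span among groups after AT2TE25440. It held no count in 1n, 157 and 154 in 2n, 830 and 110 in DH6, 104 and 4 in DH9, 1 and 0 in DH14, and 40 and 29 in sDH. It was even within 2n (7.99 ± 0.356 CPM) and sDH (1.78 ± 0.119 CPM) and uneven within DH6 (21.3 ± 22.7 CPM) and DH9 (2.95 ± 3.89 CPM). Over the floor in 1n, the level of both libraries pooled was at least 86.0-fold higher in 2n and at least 234-fold higher in DH6, the latter mostly from DH6 II. DH14 was as quiet as 1n, so that the 3 doubled-haploid lines did not share a state at this TE.

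**Figure D3:**
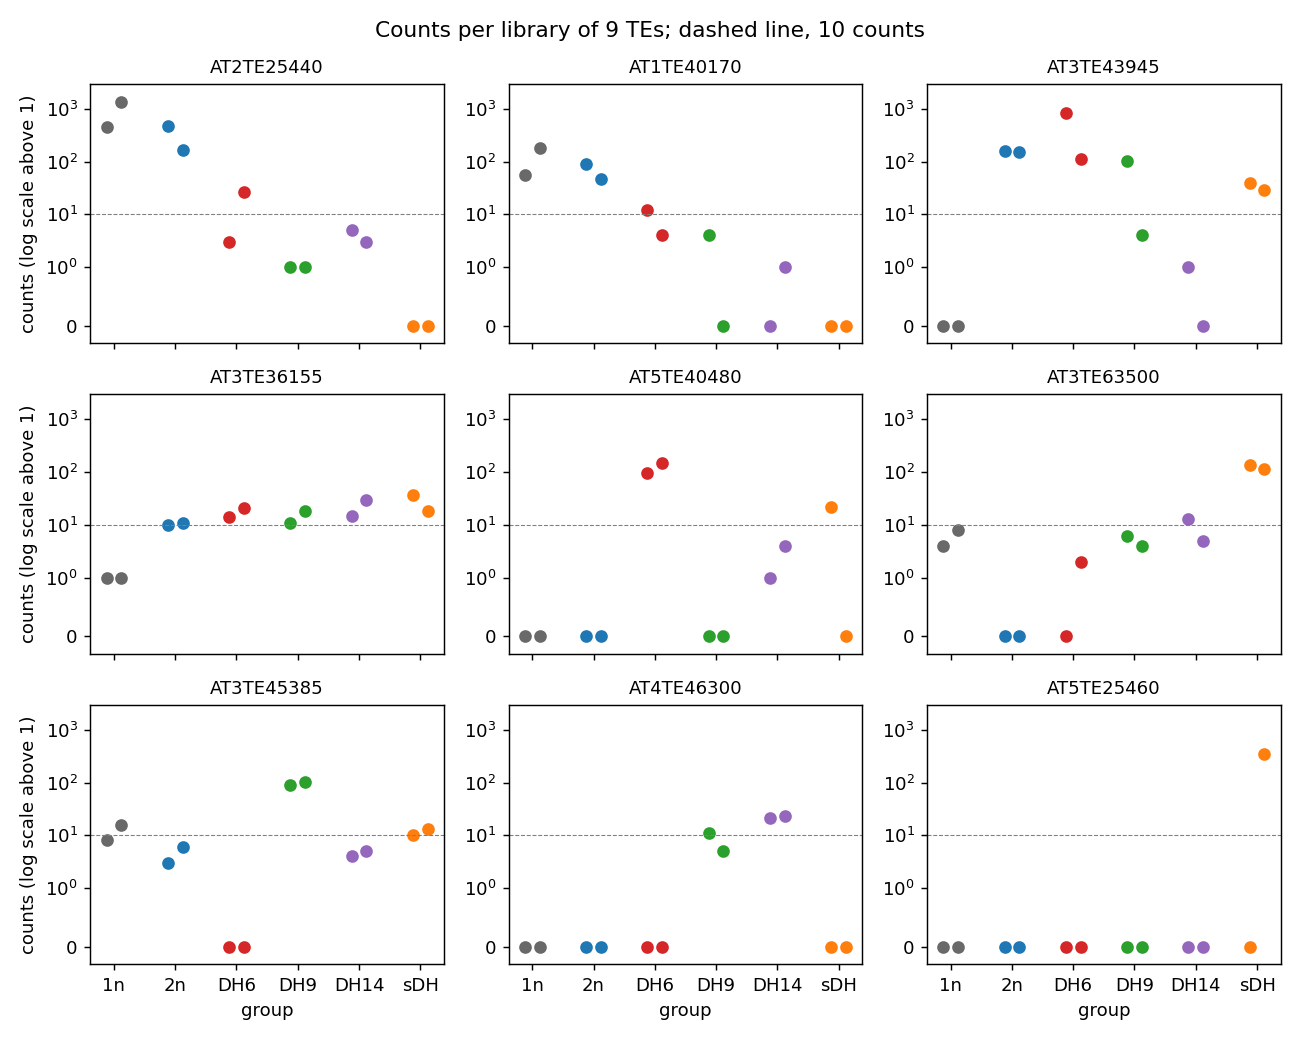
Counts per library (y axis, logarithmic above 1 count) of 9 TEs in the 6 groups (x axis), with 2 points per group for its libraries and a dashed line at 10 counts. AT2TE25440 and AT1TE40170 are high in 1n and 2n alone, AT3TE43945 is at 0 in both 1n libraries, and AT5TE25460 has counts only in sDH III.

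Between 1n and 2n, 10 TEs were on in one and silent in the other, 5 each way. On in 2n and silent in 1n were AT3TE43945, AT3TE36155, AT1TE03900, AT1TE69970 (10 and 11 counts in 2n, none in 1n) and AT4TE00590 (12 and 10 counts in 2n, 1 and 1 in 1n). On in 1n and silent in 2n were AT5TE48740, AT3TE73165, AT3TE43770, AT1TE45510 and AT2TE48170. AT5TE48740 held 38 and 53 counts in 1n, none in 2n, 4 and 3 in DH6, 3 and 8 in DH9, 9 and 8 in DH14, and 3 and 0 in sDH. The 1n level of 2.82 ± 0.739 CPM was at least 36.6-fold over the floor in 2n, and the other groups lay between. AT3TE73165 was even in 1n with 19 and 19 counts (1.18 ± 0.0345 CPM) and had none in 2n and DH6, 3 and 11 in DH9, 5 and 7 in DH14, and 1 and 2 in sDH.

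DH9 and DH14 had the most similar states. Only 2 TEs were on in one of them and silent in the other, against 4 for DH6 with sDH and up to 17 for 1n with DH6, and 43 were silent in both. On in both were 6 TEs, AT1TE04840, AT1TE62440, AT2TE27820, AT3TE36155, AT3TE63110 and AT3TE63130. AT2TE27820 held 24 and 22 counts in DH9 and 20 and 16 in DH14, with 0 and 1 in 1n, 1 and 4 in 2n, 2 and 0 in DH6, and 0 and 1 in sDH. Both lines lay above all 8 other libraries, and their own ranges were 1.20 ± 0.163 and 0.931 ± 0.169 CPM.

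AT4TE46300 had counts in these 2 lines alone, 11 and 5 in DH9 and 21 and 23 in DH14. In DH14 (1.13 ± 0.0453 CPM) it was at least 12.2-fold over the floor in 1n. AT1TE62440 held 18 and 10 counts in DH9, 15 and 20 in DH14, none in 1n, 0 and 2 in 2n, 1 and 5 in DH6, and 0 and 1 in sDH. The TEs on in DH9 and silent in DH14 were AT4TE10600, with 16 and 16 counts in DH9 and 1 and 0 in DH14, and AT5TE61795, with 10 and 18 in DH9 and none in DH14. AT4TE10600 also held 8 and 7 counts in 1n, 0 and 1 in 2n and none in DH6 and sDH, and AT5TE61795 held 0 and 2 in 1n, 0 and 1 in 2n, none in DH6, and 7 and 11 in sDH. No TE was on in DH14 and silent in DH9, though a TE can differ between the lines without being silent in either.

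AT3TE45385 had the highest mean DH9 level of the set. It held 91 and 103 counts there, 8 and 16 in 1n, 3 and 6 in 2n, none in DH6, 4 and 5 in DH14, and 10 and 13 in sDH. DH9 (5.04 ± 0.0664 CPM) stood above all 10 other libraries and at least 72.8-fold over the floor in DH6. Its neighbour AT3TE45390, the next TE in the numbering, was also highest in DH9 (10 and 8 counts), with 5 and 2 in 1n, 0 and 1 in sDH and none in 2n, DH6 and DH14.

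DH6 carried a short run of neighbouring TEs on chromosome 5. AT5TE40480 held 94 and 148 counts in DH6, 22 and 0 in sDH, 1 and 4 in DH14 and none in 1n, 2n and DH9. AT5TE40475 held 46 and 80 counts in DH6, 23 and 0 in sDH, 1 and 0 in DH9 and none elsewhere, and AT5TE40490 held 21 and 6 in DH6, 2 and 0 in sDH and none elsewhere. All 3 were thus highest in both DH6 libraries, and in sDH they had counts in library II and 0 in library III. The level of AT5TE40480 in DH6 (5.62 ± 1.97 CPM) was at least 60.2-fold over the floor in 1n and 72.5-fold over that in 2n. AT1TE54480 showed the same split with 13 and 35 counts in DH6, 6 and 0 in sDH and none in 1n, 2n, DH9 and DH14 (1.12 ± 0.760 CPM in DH6).

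In sDH the clearest TE was AT3TE63500, with 135 and 115 counts there. The other groups held 4 and 8 in 1n, none in 2n, 0 and 2 in DH6, 6 and 4 in DH9, and 13 and 5 in DH14. Both sDH libraries stood far above the rest (6.51 ± 0.305 CPM, at least 84.3-fold over the floor in 2n). The gene AT3G43850, chosen by its similar counts in the 12 libraries, held 135 and 125 counts in sDH. Its differences from the TE, added over the libraries without regard to sign, came to 4.45% of the summed counts of the TE. The gene thus followed the TE library by library. Whether the 2 features overlap was not checked, since no TE coordinates were used here.

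Other TEs highest in sDH rested on 1 library. AT5TE25460 held 348 counts in sDH III and none in the other 11 libraries, which gave the group a mean of 10.2 ± 14.4 CPM. AT1TE42210 held 67 counts in sDH III with 1 each in DH14 library 1 and sDH II, AT3TE63935 held 38 and AT5TE44190 22 in sDH III and none elsewhere. In all, 11 TEs were at 10 or more in sDH III and at 0 or 1 in each of the other libraries, 6 of them at 0. These TEs move with the library that also holds AOP3 and 12 other genes, and the part of that was not tested. In 1n library 2, AT2TE82905 held 190 counts against 0 in 1n library 1 and 3 in the rest. The gene AT2G44240, chosen in the same way as AT3G43850, held 190 counts in that library too. Its differences from the TE, added in the same way, came to 1.55%.

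Agreement between the libraries of a group was lower for these TEs than for the 1442 that reached 10 counts and were silent in no group. When the highest library of a TE was at 10 or more, its partner in the group was also at 10 or more for 55 of the 192 (28.6%), at 2 to 9 for 98 (51.0%) and at 0 or 1 for 39 (20.3%). For the 1442 others the shares were 81.3, 17.6 and 1.11%. Where the highest library held 10 to 49 counts, the partner was at 0 or 1 for 36 of 178 switched TEs (20.2%) and 16 of 690 others (2.32%). The rule itself favours low and uneven TEs, so that these shares are a description. At 50 counts or more, 14 TEs were left, and the partner reached 10 for 10 of them and was at 0 or 1 for 3. AT4TE42160 was the most scattered, with 57 counts in 1n library 2, 28 in DH6 II and 38 in DH14 library 2 and 0 to 2 counts in the other 9 libraries.

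Single libraries were also compared pair by pair. The number of TEs at 10 or more counts in one library and 0 or 1 in the other was 8 within 1n, 2 within 2n, 3 within DH6, 1 within DH9, 9 within DH14 and 26 within sDH. Between groups it ran from 9 to 51 with a median of 29. Libraries of DH9 and DH14 differed by 9 to 13 TEs, with 1 within DH9 and 9 within DH14. The rule shapes these counts, and over all 31189 TEs the lines differed by 19 to 23, against 15 within DH9 and 17 within DH14. DH6 and sDH differed by 15 TEs where the sDH library was II and by 32 and 35 where it was III, while 1n and sDH differed by 32 to 51. Within sDH, 21 TEs were high in III and silent in II and 5 the reverse.

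**Figure D4:**
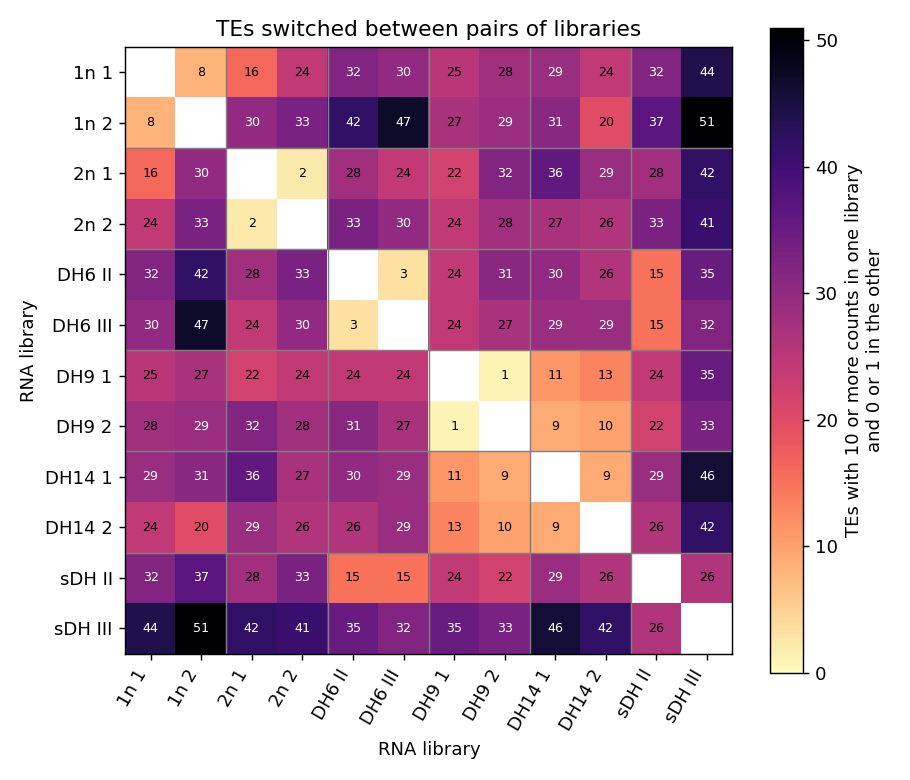
Number of the 192 TEs with 10 or more counts in one library and 0 or 1 in the other, for each pair of the 12 RNA libraries (rows and columns, grey lines between groups). Pairs within 2n, DH6 and DH9 are lightest with 1 to 3 TEs, DH9 with DH14 is light at 9 to 13, and sDH III is dark against nearly all others, up to 51 with 1n library 2.

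By the chromosome digit in their identifiers, 42 of the switched TEs lay on chromosome 1, 37 on chromosome 2, 34 on chromosome 3, 31 on chromosome 4 and 48 on chromosome 5. These are 21.9, 19.3, 17.7, 16.1 and 25% of the 192, against 22.9, 19.1, 20.7, 15.9 and 21.4% of all TEs. A neighbouring identifier that also reached 10 counts was found for 48 of the 192 (25%), against 555 of all 1639 TEs at 10 or more counts (33.9%). Among the 192 themselves, 16 stood side by side in 8 runs of 2. In 7 of the 8 runs both TEs were highest in the same group. Within 10 places of each other in the numbering, 53 TEs formed 24 clusters of up to 4, and 16 of the clusters had a group in which all their members were silent. By the rule each of the 192 is silent in at least 1 group, so that many sets of them share one. The share for TEs far apart was not computed, and nothing is read from this number.

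The cluster of 4 lay on chromosome 3 (AT3TE63085, AT3TE63110, AT3TE63120 and AT3TE63130) and was near silent in 2n. AT3TE63130 held 0 and 11 counts in 1n, none in 2n, 0 and 1 in DH6, 10 and 13 in DH9, 20 and 18 in DH14, and 11 and 5 in sDH. AT3TE63110 held 1 and 15, 0 and 0, 4 and 0, 10 and 10, 13 and 12, and 6 and 7 in the same order. All 4 were on in DH14, and in 2n their libraries held 0 to 2 counts. A cluster of 3 on chromosome 4 (AT4TE05230, AT4TE05235 and AT4TE05245) was highest in 2n library 2 with 17, 16 and 18 counts and silent in DH6.

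Not every run went together. AT1TE18300 was highest in DH9 library 1 (13 counts) and silent in 1n, and its neighbour AT1TE18370 was highest in DH14 library 2 (16 counts) and silent in 2n. AT1TE66640 and AT1TE66645, also a run, were both highest in sDH III (19 and 37 counts). AT5TE45470 and AT5TE45800 held the same counts in all 12 libraries (14 in DH14 library 1 and 6 in sDH III, 25 in sum), and whether they are separate measurements was not tested, as the rule for reads that match several copies is unknown.

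Of the 192 TEs, 62 had enough counts to enter the fit of 1372 TEs, and 130 did not. A TE passed at an adjusted p under 0.05 in edgeR's quasi-likelihood test. The choice of the TEs favours such calls, and nothing is read from their number. In 2n against 1n, 10 were higher and 20 lower, where 16.4% of all tested TEs were higher and 10.1% lower. With 1n as the reference throughout, DH6 had 11 higher and 23 lower (20 and 13.2% of all tested), DH9 12 and 16 (13.8 and 6.92%), DH14 9 and 11 (9.91 and 5.54%), and sDH 11 and 22 (24.7 and 13.2%). All these comparisons share the 1n libraries.

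Against 2n, 5 were higher and 14 lower in DH6 (6.85 and 8.24% of all tested TEs), 13 and 9 in DH9 (6.49 and 5.61%), 15 and 9 in DH14 (9.55 and 8.89%), and 10 and 12 in sDH (13.3 and 8.45%). Among the lines, DH9 against DH6 gave 11 higher and 5 lower (7.29 and 5.69%), DH14 against DH6 13 and 4 (9.99 and 8.38%), and DH14 against DH9 0 higher and 3 lower (0.364 and 0.948%). Scaling by TE counts in place of gene counts moved the median log2 change of all tested TEs against 1n by -0.29 in sDH, -0.20 in DH6, -0.15 in DH9 and -0.12 in DH14.

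Genes that act in TE silencing, some of them against it, were measured in the same libraries and were not used to choose the TEs. The list includes ROS1, which removes DNA methylation and is among the genes counted as higher in 2n, DH9, DH14 and sDH. Of 35 listed genes, 34 were tested among 19194, and most of those that passed against 1n were higher. In 2n, 12 rose and 1 fell (21.1% of all tested genes rose and 19.9% fell), in DH6 13 and 1 (22.6 and 24.6%), in DH9 12 and 0 (15.5 and 14.8%), in DH14 11 and 0 (12.2 and 11.8%), and in sDH 15 and 1 (24.1 and 24.4%). The median log2 change of the list was 0.26, 0.24, 0.26, 0.30 and 0.45 in the same order. Haploid leaves had the lower levels of several of these genes. They held the highest mean levels of AT2TE25440, AT1TE40170 and AT3TE44395. They also held the lowest TE counts per gene count (9.08 and 9.19 per mille) and the most TEs silent in 1 group alone (24, against 22 in 2n and 20 in DH6). Silence was called on raw counts, and the 1n libraries were the shallowest, with 1 count at 0.0606 and 0.0631 CPM. The part of the silencing genes in the TE states was not tested.

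CMT3, the chromomethylase of CHG sites, stood at 21.9 and 20.9 CPM in 1n and at 32.2 to 43.7 CPM in the other 10 libraries, without overlap. It rose in 2n to 41.4 ± 1.90 from 21.4 ± 0.727 CPM (SE of the log2 change of 0.95 was 0.125, edgeR adjusted p = 0.000153) and in DH6, DH9, DH14 and sDH (log2 changes 0.94, 0.75, 0.66 and 0.84, edgeR adjusted p = 0.000141, 0.00127, 0.00412 and 0.000271). DDM1, the chromatin remodeler without which many TEs are transcribed, was at 8.84 and 8.33 CPM in 1n and at 12.2 to 18.3 CPM elsewhere. The log2 changes against 1n were, for 2n and the 3 lines in order, 0.65, 1.00, 0.69 and 0.87, and 1.00 for sDH (edgeR adjusted p = 0.00199, 0.0001, 0.00222, 0.00095 and 9.11e-05).

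MET1, the CG methyltransferase, was at 47.4 and 44.4 CPM in 1n and at 60.1 to 82.3 CPM elsewhere. It rose in each group, by log2 changes of 0.73, 0.72, 0.72, 0.57 and 0.46 in the order 2n, DH6, DH9, DH14, sDH (edgeR adjusted p = 0.000592, 0.000501, 0.00107, 0.00562 and 0.00708, the last lost without sDH II, at a log2 change of 0.39). VIM1, which binds methylated DNA and helps MET1, rose in all 5 groups by 1.04, 1.08, 0.71, 0.55 and 0.92 on the log2 scale in 2n, DH6, DH9, DH14 and sDH, from 21.8 ± 2.03 CPM in 1n (edgeR adjusted p = 3.95e-05 to 0.00675, in DH14 lost without library 1 at 0.46). SUVH4, the histone methyltransferase that works with CMT3, was at 7.04 ± 0.843 CPM in 1n and rose in 2n, in DH6 (12.4 ± 0.797 CPM) and in sDH (12.1 ± 1.34 CPM; log2 changes 0.77, 0.82 and 0.78, edgeR adjusted p = 0.00175, 0.000931 and 0.00125). SUVH4 also passed in DH9 (0.46, edgeR adjusted p = 0.0369), a call lost with DESeq2 and without 1n library 2 (0.35), DH9 library 2 (0.33) or either DH14 library (0.46 and 0.45), and did not pass in DH14 (0.40, 0.0707).

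**Figure D5:**
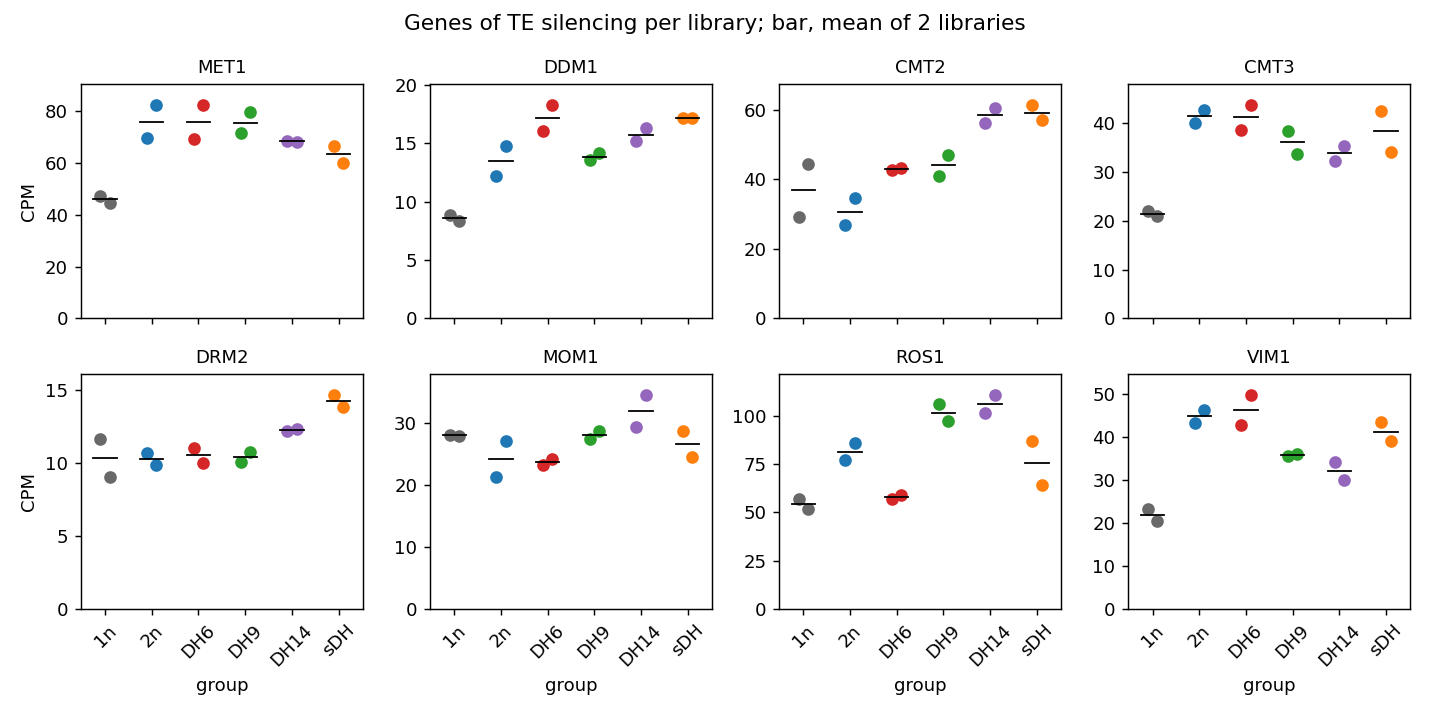
Levels in CPM (y axis, from 0) of 8 genes of TE silencing in each library (points) of the 6 groups (x axis), with a bar at the mean of the 2 libraries. CMT3, DDM1, MET1 and VIM1 are lowest in both 1n libraries, while DRM2 overlaps with 1n in 2n, DH6 and DH9 and MOM1 in DH9 and sDH alone.

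Genes of the small RNA pathway moved in both directions. NRPE1, the largest subunit of RNA polymerase V, rose in all 5 groups, from 10.3 ± 1.53 CPM in 1n to 20.9 ± 0.0391 CPM in sDH (log2 change 1.02, SE 0.137, edgeR adjusted p = 0.000141), and its rise in 2n (0.59, 0.00599) was lost without 2n library 2 (0.43). NRPD1, the largest subunit of RNA polymerase IV, fell from 7.29 ± 1.57 CPM in 1n to 3.15 ± 0.619 in 2n, 3.69 ± 0.186 in DH6 and 2.83 ± 0.304 in sDH (log2 changes -1.21, -0.98 and -1.37, edgeR adjusted p = 0.000988, 0.00261 and 0.000375). In DH9 and DH14, at 5.33 ± 0.139 and 5.83 ± 0.0691 CPM, NRPD1 did not pass (edgeR adjusted p = 0.116 and 0.273), though in DH9 it did without 1n library 1 (log2 change -0.65). AGO4, the Argonaute that carries these small RNAs, passed as higher in all 5 groups, with log2 changes of 0.41 in 2n and 0.56 to 0.64 in the others, and its calls in 2n and DH14 were each lost without library 2 of that group (log2 changes 0.38 and 0.45). DRM2 stood at 10.3 ± 1.84 CPM in 1n and passed in sDH alone (14.3 ± 0.551 CPM, log2 change 0.46, edgeR adjusted p = 0.0156), a call lost with DESeq2 and without 1n library 2 (0.30) or sDH II (0.43).

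CMT2, which methylates CHH sites, had unequal 1n libraries (29.1 and 44.5 CPM) and passed in DH14 (58.4 ± 2.96 CPM, log2 change 0.67, edgeR adjusted p = 0.0203) and sDH (59.2 ± 3.14 CPM, 0.69, 0.00828). The first call was lost without 1n library 1 (0.39), DH14 library 1 (0.72) or DH14 library 2 (0.60), and the second without sDH II (0.63). With 1 of the 1n libraries left out, CMT2 also passed in 2n (-0.53), DH6 (0.57) or DH9 (0.60). MOM1, whose loss frees TEs with little loss of methylation, passed in no comparison with 1n on all libraries, and in 2n it did without 2n library 2 (-0.40). ROS1, a demethylase that removes DNA methylation, was at 56.8 and 51.8 CPM in 1n, 57.2 and 59.3 in DH6, 106 and 97.5 in DH9, 101 and 111 in DH14, 77.0 and 85.9 in 2n, and 86.8 and 64.2 in sDH.

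ROS1 rose in DH9 and DH14 (log2 changes 0.91 and 0.97, edgeR adjusted p = 0.000573 and 0.000708) and in 2n (0.58, 0.00475), and did not pass in DH6 (0.10, 0.555). Its rise in sDH (0.48, 0.0115) was lost without 1n library 2 (0.41) or sDH II (0.25). The lines differed directly as well, by 0.81 for DH9 against DH6 and 0.87 for DH14 against DH6 (edgeR adjusted p = 0.00287 and 0.00103), and these calls held without each library and with DESeq2. CLSY1, a remodeler that recruits RNA polymerase IV, was higher in DH9 (13.6 ± 0.898 CPM) than in 1n (5.82 ± 0.346 CPM, log2 change 1.22, edgeR adjusted p = 0.000324). It also passed in 2n (9.35 ± 1.45 CPM, 0.68, 0.00676), lost without 2n library 2 (0.51), and in DH6 (8.59 ± 0.816 CPM, 0.56, 0.0156), lost with DESeq2 and without 1n library 1 (0.51) or DH6 II (0.46). In DH14 CLSY1 did not pass (0.50, 0.0506), and it did without either 2n library (0.50 and 0.49). It was the one listed gene that differed between DH14 and DH9 (log2 change -0.73, edgeR adjusted p = 0.0315), where 1.55% of all tested genes were higher and 1.56% lower. This call was lost when any 1 library of either line was left out (-0.66 to -0.79). The other 33 tested genes did not pass between DH14 and DH9, which does not show that they were equal.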

How the data were processed

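The deposited tables hold counts of reads per gene and per TE, made by the authors. Per the submitters' processing notes HISAT2, Subread and DESeq2 were used with TAIR10, while tool versions, gene models, strandedness and the rule for multiply matching reads are not given in these sources. The 5 TE tables and 5 gene tables (10 in all) were joined on their identifiers, and the 15 repeated 1n columns compared were equal. The WT columns were read as 2n, the one group that had no column otherwise, DH6 and sDH columns carry II and III where the labels have 1 and 2, and the sDH gene table repeats 1n library 1, so that 1n came from the other tables. No column (0) was left unused. The 12 DNA methylation samples were not analysed here, and no TE coordinates, families or sequences were used.

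The rule above gave the 192 TEs. One quasi-likelihood model per feature type (edgeR 4.0.16, limma 3.58.1, R 4.3.3) was fitted over the 12 libraries, each group with its own mean, after edgeR's filter (minimum count 10, minimum total 15), with TMM factors and library sizes from genes and Benjamini-Hochberg adjustment over all features tested. It was tested on simulated data. SD is over the 2 libraries of a group, p-values measure only the spread between these libraries, which may be technical, and floors cover counting error only. A fold over a group at 0 sets the pooled counts of the higher group against 3 counts over that group. Its "at least" bounds the lower side alone and does not cover the spread between libraries of the higher group. Alternatives were other rule limits, thinning, DESeq2 1.42.0, TE-based TMM, no filter, 4-library fits, a replicate block and leaving out each library.

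TEs were named by state (on in 1 group and silent in 5 or the reverse, on in 1n and 2n and silent in others, on in one of DH9 and DH14), by the 5 highest group means, by the longest runs, and at the rule's edge. Of the silencing genes, MET1, DDM1, CMT2, CMT3, DRM2, MOM1 and ROS1 were read throughout, with up to 3 more per comparison by smallest adjusted p. The other TEs and genes in the text were chosen after their values were seen. The TEs, gene lists and markers were chosen with earlier results of these data known.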

Additional observations from a re-analysis of the deposited data

Results flagged for a closer look

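At 13 of the switched TEs, a group in which the TE was on had both libraries above both 1n libraries while a group in which it was silent had both below them. These opposite moves were not tested as differences, and the same counts chose the TEs. At some of them the lower side lay within the floor of 3 counts in 1n as well. AT4TE05230 was at 0.121 and 0.126 CPM in 1n against 0.0449 and 0.0474 CPM in DH6. AT2TE08840 was at 0.121 and 0.0631 CPM in 1n against 0.0493 and 0 CPM in 2n. The mean in sDH exceeded that in 2n by 6.51 CPM at AT3TE63500, and DH9 exceeded DH6 by 5.04 CPM at AT3TE45385 and by 0.834 CPM at AT4TE10600. At 3 TEs 2n was above and DH6 below 1n, with a difference of 1.62 CPM at AT2TE36460, 1.12 at AT3TE41160 and 0.704 at AT4TE05230. DH14 was above and DH6 below at AT5TE56560 (0.569 CPM) and AT5TE82870 (0.804 CPM). DH14 exceeded 2n at AT2TE08840 (0.596 CPM) and AT3TE63120 (0.542 CPM), and 2n exceeded DH14 at AT1TE56345 by 0.835 CPM. 2n exceeded sDH at AT3TE73025 by 1.06 CPM, and DH6 exceeded 2n at AT5TE93055 by 0.508 CPM.

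Among the genes of TE silencing, differences between doubled-haploid lines passed edgeR's quasi-likelihood test with adjustment over all genes. DH9 differed from DH6 by log2 changes of 0.81 in ROS1, 0.66 in CLSY1, -1.04 in ATXR6 and -0.50 in DMS3. DH14 differed from DH6 by 0.87 in ROS1, 0.43 in MOM1, -0.53 in VIM1, 0.39 in NRPD2 and -0.98 in ATXR6, and from DH9 by -0.73 in CLSY1. Calls for ROS1 held without each library in turn. Each of the others was lost without at least 2 of the libraries compared, at log2 changes of 0.31 to 0.46 for MOM1, -0.41 and -0.44 for VIM1, 0.31 to 0.40 for NRPD2, and 0.57 to 0.73 for CLSY1 in DH9 against DH6. For ATXR6 they were -0.69 to -1.10 against DH6 in DH9 and -0.88 to -1.08 in DH14, for DMS3 -0.41 to -0.59, and for CLSY1 in DH14 against DH9 -0.66 to -0.79. The calls for DMS3 and NRPD2 were also lost with DESeq2 (-0.50 and 0.39). CMT2 passed between DH14 and DH6 when either 1n library was left out (0.44).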

How the results depend on the processing

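The number of TEs that follow the rule (192) was 49 with a minimum of 20 counts, 697 with 5, 109 with silence at 0 counts and 59 with the minimum in both libraries of a group, and 283 with silence at up to 2 counts. It was 167 after thinning to the smallest gene total (153 shared), and 190 (168 shared) to 242 (187 shared) without single libraries. The fits without one group (146 without DH6, 147 without 1n) and the thinned states were added after the data were seen, as was a fit of 8 libraries with no replicate term; thinned, 8 TEs in place of 13 were on in DH14. DESeq2 called 17 of the TEs in 2n against 1n, 21 in DH6, 9 in DH9 and 5 in DH14, and 8, 13, 13 and 13 in DH6, DH9, DH14 and sDH against 2n, 3 in DH9 against DH6 and 1 in DH14 against DH9. Fits of the 4 libraries of a pair called 13 in 2n, 21 in DH6, 17 in DH9 and 18 in sDH against 1n, and 14 in sDH against 2n. Without a filter 30 were called in DH6 against 2n, and with TE-based TMM 1 in DH14 against DH9. The causes were not tested. Without single libraries, calls against 1n ran from 8 to 34 in 2n, 24 to 43 in DH6, 10 to 32 in DH9, 7 to 22 in DH14 and 25 to 44 in sDH. Against 2n they ran from 8 to 32 in DH6, 3 to 26 in DH9, 4 to 24 in DH14 and 10 to 33 in sDH. They ran from 3 to 18 in DH9 and 8 to 22 in DH14 against DH6, and from 1 to 3 in DH14 against DH9. Counts moved by over 1.5 times in 2n against 1n without 1n 2 (11), 2n 1 (13) or 2n 2 (8). In DH9 against 1n they did without 1n 1 (18), 1n 2 (14), DH9 1 (10) or DH9 2 (12), and in DH14 against 1n without 1n 2 (10), 2n 1, DH9 1 or DH9 2 (13 each), DH14 1 (11) or DH14 2 (7). In DH6 against 2n they did without 1n 2 (29), 2n 1 or 2n 2 (10 each), DH6 II (9), DH6 III (8), sDH II (31) or sDH III (32). In DH9 against 2n they did without 2n 1 (5), 2n 2 (6), DH9 1 (7), DH9 2 (3) or DH14 2 (14), and in DH14 against 2n without 2n 1 (4), 2n 2 (13), DH14 1 (7) or DH14 2 (5). In sDH against 2n they did without 2n 1 (10) or 2n 2 (11). In DH9 against DH6 they did without DH6 II (4), DH6 III (3) or either DH9 library (4 each), and in DH14 against DH6 without either DH6 library or DH14 1 (8 each) or DH14 2 (10). In DH14 against DH9, 1 call was left without 2n 1, 2n 2, DH6 II, DH6 III, DH9 1, DH14 1, DH14 2, sDH II or sDH III. Calls of silencing genes against 1n ran from 10 to 14 in 2n, 12 to 15 in DH6, 8 to 13 in DH9, 7 (without DH14 2) to 12 in DH14 and 11 to 17 in sDH. With the replicate number as a block in the 8 libraries numbered 1 and 2, 22 of the TEs passed in 2n, 24 in DH9 and 19 in DH14 against 1n, 22 in DH9 and 21 in DH14 against 2n, and 4 in DH14 against DH9 (23, 25, 19, 21, 21 and 3 without the block). Deviations of same-numbered libraries correlated at -0.14 to 0.13 in these 8 libraries, and whether they shared a batch was not tested. At a median of 13 counts in the highest library, a silent group with 0 counts may still hold up to 0.135 to 0.189 CPM per library.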
